A study of Mus musculus with 5 samples.

Results

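A set of 9 genes that mark pancreatic progenitors or dedifferentiated β-cells was followed across sorted mouse islet cells. They were chosen by symbol (Neurog3, Sox9, Aldh1a3, Sox4, Hes1, Notch1, Notch2, Gata6 and Onecut1), and all 9 were found among the 19938 genes measured, each by 1 probe set. RNA came from pancreatic islet cells of untreated C57BL/6 mice aged 8 to 12 weeks, every one heterozygous for Flattop (FVR/+). Flow cytometry had divided the cells by Flattop status, with 3 arrays of positive and 2 of negative cells, and each array held 1 pool from 4 to 6 mice whose sex was not determined. Flattop is the product of Cfap126, a ciliary and planar polarity gene. The title of the series contrasts β-cells that proliferate with mature ones, and the comparison addresses whether genes of the immature state differ between the fractions. There was no wild-type group, and the labels do not say whether pools shared animals, so p-values measure only the spread between these pools.

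In the embryonic pancreas, multipotent cells carry Sox9, Gata6 and Onecut1, and the cells that switch on the basic helix-loop-helix factor Neurog3 leave the cell cycle and become endocrine. Notch signalling holds neighbours back: a ligand on one cell leads γ-secretase to cut the receptor on the next, the freed Notch domain joins RBPJ in the nucleus, and targets such as Hes1 repress Neurog3. Adult β-cells keep Neurog3 low, and under metabolic stress some are described as regaining progenitor genes and Aldh1a3, an enzyme of retinoic acid synthesis.

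The region upstream of Neurog3 is shown because 4 of the other members, Hes1, Sox9, Gata6 and Onecut1, encode factors known to act on this gene. Sox4 is shown beside it as the member whose upstream region held letters of both the RBPJ and the HES kind. Each sequence is the 250 bases before the RefSeq start site (GRCm38.p6), written 5′ to 3′ on the strand of the gene. Neurog3 covers chr10:62132840-62133089 on the plus strand and Sox4 covers chr13:28953700-28953949 on the minus strand.
Neurog3: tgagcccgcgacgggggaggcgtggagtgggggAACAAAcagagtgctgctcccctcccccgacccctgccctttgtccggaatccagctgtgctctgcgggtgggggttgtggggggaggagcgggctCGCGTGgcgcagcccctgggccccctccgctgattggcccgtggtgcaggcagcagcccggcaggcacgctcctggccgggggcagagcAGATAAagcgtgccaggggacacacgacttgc
Sox4: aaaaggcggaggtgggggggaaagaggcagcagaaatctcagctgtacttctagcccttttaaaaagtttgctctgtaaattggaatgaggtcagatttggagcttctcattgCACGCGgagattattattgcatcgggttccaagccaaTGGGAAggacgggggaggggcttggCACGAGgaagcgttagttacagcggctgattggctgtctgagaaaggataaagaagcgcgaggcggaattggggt

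Capitals mark matches, on either strand, to the letters searched: CACNAG and CACGCG for HES factors, TGGGAA for RBPJ, AACAAT and AACAAA for SOX factors, AGATAA for GATA factors and ATTGAT for ONECUT factors. In Neurog3 these were 1 CACGCG on the opposite strand, 1 AACAAA, and 1 AGATAA whose first base lay 32 bases before the start. In Sox4 they were 1 CACGCG, 1 CACNAG and 1 TGGGAA, none of which overlapped. Such letters are common: over the same window of 32851 RefSeq promoters, 36.7% held CACNAG, 7.62% CACGCG, 21.6% TGGGAA, 9.42% AACAAT, 18% AACAAA, 9.99% AGATAA and 6.72% ATTGAT. The promoter table had entries for 5 of the 9 members (Neurog3, Sox4, Notch1, Notch2 and Onecut1). In Notch1 the search found 1 CACNAG, in Notch2 1 CACNAG and 1 CACGCG, and in Onecut1 no match. A match is a description of the sequence and does not show binding.

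All values are log2 signals, where 1 unit is a 2-fold step. A floor was taken on each array from 1027 olfactory receptor (Olfr) genes, which islet cells are not expected to use: a gene counted as above the floor when its signal passed the 95th percentile of those genes. The floor was not level. Flattop-positive arrays had it at 4.29 to 4.45 but Flattop-negative ones at 4.75 and 4.86, and the median difference of the Olfr genes was -0.27 (Flattop-positive minus Flattop-negative). Across all 19938 genes the median difference was -0.10 as deposited. The Flattop gene Cfap126 lay at 6.07 to 6.24 in Flattop-positive and at 5.52 and 5.44 in Flattop-negative arrays. Of 14 β-cell markers all 14 had higher means in Flattop-positive cells, 12 of them without overlap, and their median signal was 10.05 to 10.16 on Flattop-positive arrays against 8.90 and 8.18. In such pools fewer cells of a type and less RNA per cell cannot be told apart. Signals also spread less on the Flattop-negative arrays, with an SD over all genes of 1.65 and 1.63 against 1.83 to 1.93. The median difference of the β-cell markers was 1.27 as deposited, 0.89 with repeated quantile normalisation and 0.84 with cyclic loess. The part of the narrower spread in the β-cell marker difference was not tested. The Flattop-negative arrays resembled each other less (r = 0.846 over genes) than the Flattop-positive arrays did (0.953 to 0.984).

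No member differed between the fractions beyond the spread of the pools. In limma 0 of 9 passed an adjusted p of 0.05, against a background of 0% of all genes, and 0 of 9 had an unadjusted p under 0.05, against 13.8%. The groups overlapped for every member, while 34.7% of all genes did not overlap (13.7% with Flattop-positive values on top, 21% with them below). All 9 means were lower for Flattop-positive cells, and the median difference was -0.25, beside -0.27 for the Olfr genes and 0.18 for the 10092 genes above the floor on all 5 arrays. That common sign was not stable: it was 0.20, with 3 of 9 lower, once Flattop-negative replicate 2 was left out, and with arrays centred on the Olfr floor, an alternative added after the data had been seen, it was 0.17 and again 3 were lower. That centring adds 0.41 to the difference of every gene alike and moved the median of all genes to 0.31.

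**Figure D1:**
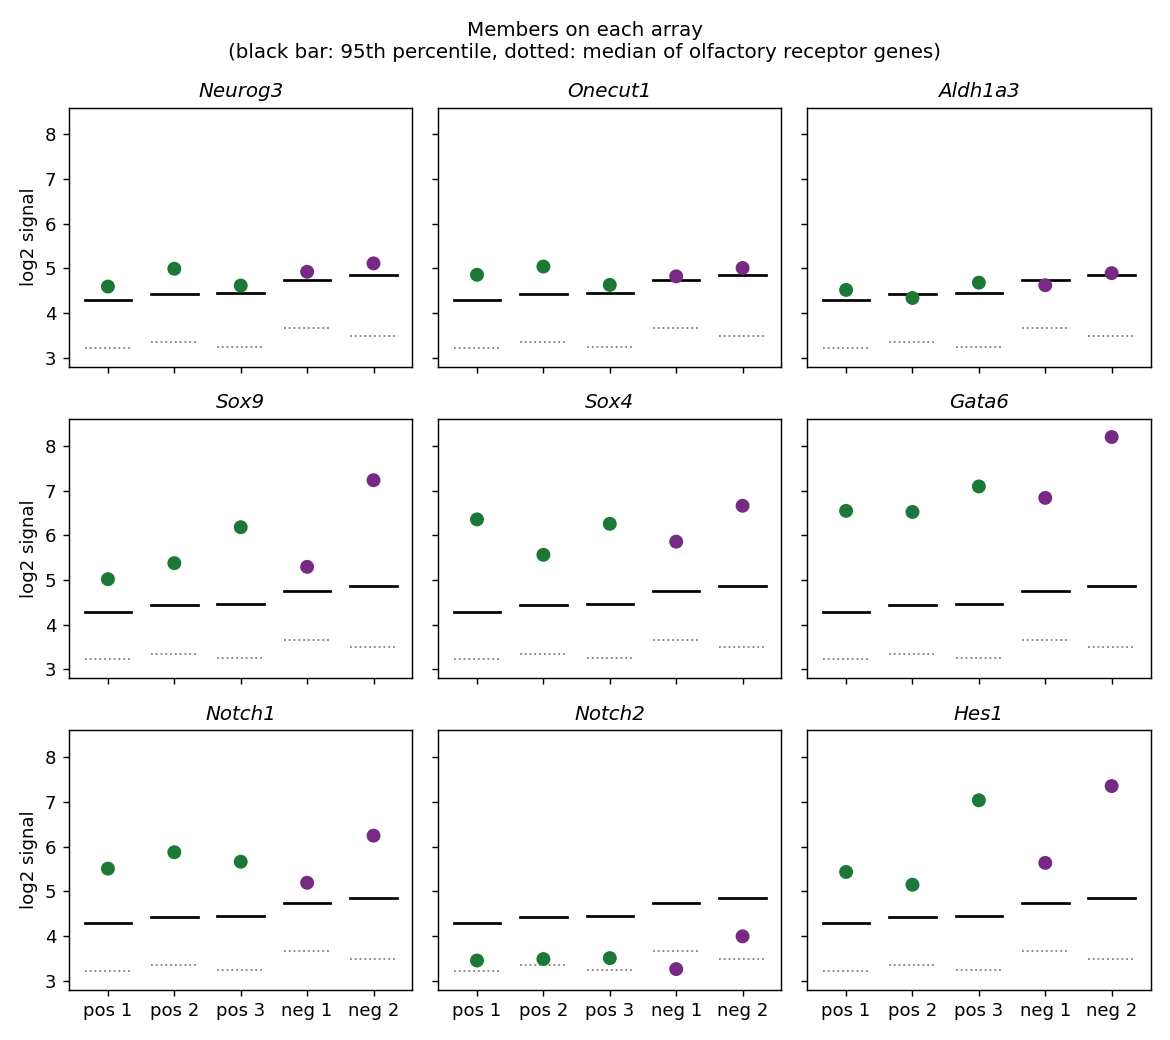
Log2 signal (vertical axis) of the 9 members on each of the 5 arrays (horizontal axis; pos, Flattop-positive; neg, Flattop-negative; number, replicate). Black bars are the 95th percentile and dotted bars the median of olfactory receptor genes on that array: Gata6 stays at least 2.08 units above the black bar, Neurog3 stays within 0.56 of it, and Notch2 is below it on all 5 arrays.

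Neurog3, the switch to the endocrine fate, was close to the floor in both fractions. It stood at 4.60, 4.99 and 4.62 in Flattop-positive replicates 1, 2 and 3 and at 4.93 and 5.11 in Flattop-negative replicates 1 and 2. The Flattop-negative values were inside or just above the Flattop-positive range. Like 6 other members, it exceeded the floor on every array, as 50.6% of all genes did, here by 0.16 to 0.56 units, and it lay above 96.0% to 98.3% of the olfactory receptor genes. It failed the stricter 99th percentile of the Olfr genes on all 5 arrays. The difference was -0.28 ± 0.22 (SE; 95% interval -0.83 to 0.26; limma adjusted p = 0.562). Measured from each array's own floor, the means were 0.34 in Flattop-positive and 0.22 in Flattop-negative arrays, on a scale where the median of all genes is 0.31 higher in Flattop-positive arrays.

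Onecut1 (HNF6), a factor that acts on Neurog3 in progenitors, showed the same narrow margin. Its values were 4.86, 5.04 and 4.63 in the Flattop-positive and 4.82 and 5.01 in the Flattop-negative arrays, a span of 0.41 units, the smallest of the 9. It passed the floor by 0.08 to 0.60 units and passed the 99th percentile of Olfr genes on no array. The groups overlapped fully, with a difference of -0.07 ± 0.21 (SE; 95% interval -0.61 to 0.46; limma adjusted p = 0.886).

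Aldh1a3, the dedifferentiation enzyme, could not be told from the floor. It read 4.52, 4.34 and 4.68 in the Flattop-positive and 4.62 and 4.90 in the Flattop-negative arrays. Those values crossed the floor on 3 of 5 arrays, by at most 0.23 units, and missed it on Flattop-positive replicate 2 and Flattop-negative replicate 1. The difference was -0.25 ± 0.21 (SE; 95% interval -0.77 to 0.28; limma adjusted p = 0.600). From each array's own floor the means were 0.12 and -0.04, on the same shifted scale.

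Gata6, a zinc-finger factor of pancreas formation, was well above the floor on every array, by 2.08 to 3.34 units. It stood at 6.55, 6.52 and 7.09 in the Flattop-positive arrays and at 6.84 and 8.20 in the Flattop-negative arrays. Flattop-negative replicate 2 was the high array, and replicate 1 of that fraction lay within the Flattop-positive range. The mean was 6.72 ± 0.32 (SD, n = 3) against 7.52 ± 0.96 (SD, n = 2), a 1.74-fold higher mean in the Flattop-negative arrays. The difference of -0.80 ± 0.45 (SE; 95% interval -1.92 to 0.32) had the smallest p of the 9 (limma unadjusted p = 0.130, adjusted p = 0.465; exact permutation p = 0.3, two-sided, where 0.1 is the smallest possible). Leaving out Flattop-negative replicate 2 brought it to -0.12, and leaving out replicate 1 to -1.48.

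Sox9, an HMG-box factor that maintains progenitors and stays on in adult ducts, varied more within the fractions than between them. Its signals were 5.02, 5.38 and 6.18 in the Flattop-positive and 5.29 and 7.23 in the Flattop-negative arrays. The Flattop-negative pair was 1.94 units apart, while the difference between the fractions was -0.74 ± 0.65 (SE; 95% interval -2.35 to 0.88; limma adjusted p = 0.607). It turned to 0.23 when Flattop-negative replicate 2 was dropped and reached -1.71 when replicate 1 was. Sox9 passed the 99th percentile of Olfr genes on 3 of 5 arrays.

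Duct markers were mixed in direction. Of the 10 measured, 5 had higher and 5 lower means for Flattop-positive cells (median 0.01), and 4 peaked on Flattop-negative replicate 2. Their summed linear signal was 4663 to 7381 in Flattop-positive and 3568 and 6817 in Flattop-negative arrays. The defining channel gene Cftr was below the floor on all 5 arrays and the keratin gene Krt19 was at 4.06 to 5.57 and passed it on 3, whereas Krt7 was at 9.05 to 9.88 in Flattop-positive and 6.76 and 8.37 in Flattop-negative arrays. The mucin gene Muc1 was high on the same arrays as Sox9, at 6.54 on Flattop-positive replicate 3 and 6.23 on Flattop-negative replicate 2 against 4.74 to 4.77 elsewhere. Dcdc2a was higher in Flattop-positive arrays without overlap (5.98 to 6.80 against 5.19 and 5.70) and the water channel gene Aqp1 lower (4.57 to 4.62 against 4.65 and 5.28). The Aqp1 groups were barely apart, and on Flattop-negative replicate 1 it lay below the floor. Centred on the floor, its difference was 0.048. Between Flattop-negative replicates 1 and 2, Ambp went from 6.07 to 8.12 and Krt18 from 9.03 to 11.48. The part of duct cells in the Sox9 values was not tested.

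Sox4, a SoxC factor that promotes endocrine differentiation, was clearly present and uneven. It stood at 6.35, 5.56 and 6.26 in the Flattop-positive and at 5.86 and 6.66 in the Flattop-negative arrays. Both fractions held a higher and a lower array, and the difference was -0.20 ± 0.37 (SE; 95% interval -1.12 to 0.72; limma adjusted p = 0.807). It was 0.20 without Flattop-negative replicate 2, -0.60 without replicate 1 and 0.05 without Flattop-positive replicate 2. Sox4 and Gata6 were the members that passed the 99th percentile of Olfr genes on all 5 arrays.

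**Figure D2:**
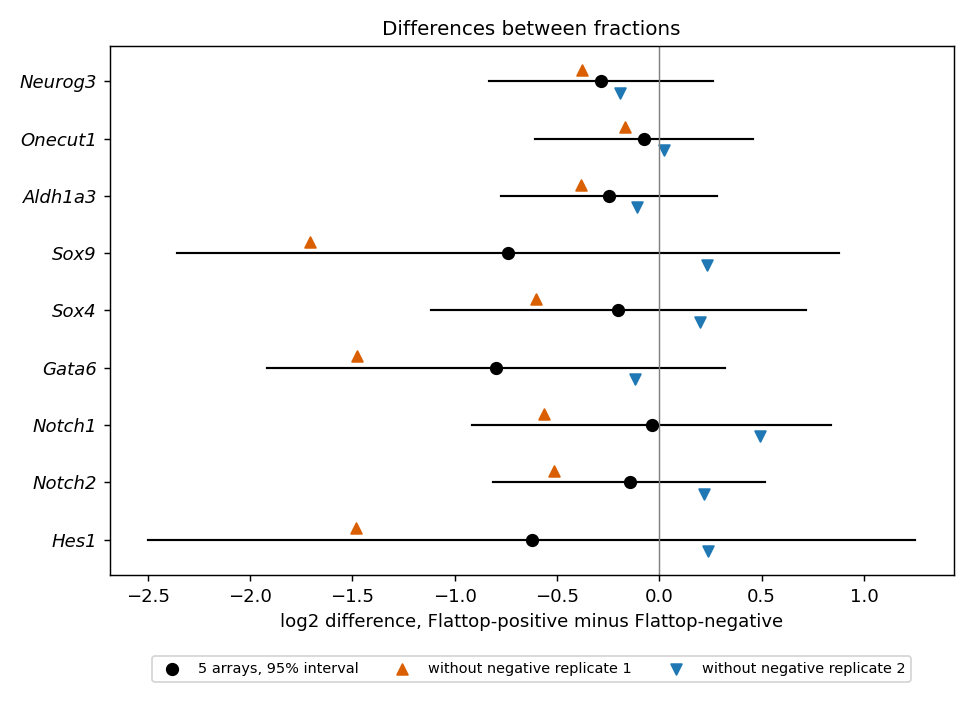
Log2 difference, Flattop-positive minus Flattop-negative (horizontal axis), for each member with all 5 arrays (black points; lines, 95% limma intervals) and with either Flattop-negative array left out (triangles). Every interval includes 0, and the triangles for Sox9 lie at -1.71 and 0.23.

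The receptor Notch1 was above the floor on every array. Its values were 5.51, 5.88 and 5.66 in the Flattop-positive and 5.19 and 6.25 in the Flattop-negative arrays. The Flattop-negative pair thus enclosed all 3 Flattop-positive values. The means nearly coincided, with a difference of -0.04 ± 0.35 (SE; 95% interval -0.92 to 0.84; limma adjusted p = 0.969). Leaving out Flattop-negative replicate 2 gave 0.49, and leaving out replicate 1 gave -0.56.

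The receptor Notch2 was not detected above the floor. It read 3.45, 3.49 and 3.51 in the Flattop-positive and 3.26 and 3.99 in the Flattop-negative arrays. On each array the floor was at least 0.83 units higher, and between 21.6% and 76.3% of Olfr genes lay below it. Its difference of -0.15 ± 0.27 (SE; limma adjusted p = 0.807) compares signals at background. It was 1 of 6154 genes (30.9%) below the floor on all 5 arrays, so the amount of Notch2 RNA in the cells cannot be read from this probe set.

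The Notch target Hes1, a repressor of Neurog3, had the widest interval of the 9. It stood at 5.43, 5.15 and 7.04 in the Flattop-positive and at 5.64 and 7.36 in the Flattop-negative arrays. Each fraction held 1 high array, Flattop-positive replicate 3 and Flattop-negative replicate 2, and these lay 1.75 units above the mean of replicates 1 and 2 and 1.72 units above replicate 1 of their own fractions. The difference between fractions was smaller, -0.62 ± 0.75 (SE; 95% interval -2.50 to 1.25; limma adjusted p = 0.704). Dropping Flattop-negative replicate 2 turned it to 0.24, and dropping replicate 1 gave -1.48. Neurog3 moved little across the same arrays, with a span of 0.52 units at the floor against 2.21 for Hes1.

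The arrays on which the members were high were often the same. Flattop-negative replicate 2 gave the highest signal for 8 of 9 members, all but Onecut1, while 31.3% of all genes peaked there. With arrays centred on their medians it was 7 of 9, against 21.3% of all genes. The Olfr floor was also highest on that array. Measured from each array's own floor, Sox9 and Gata6 still peaked there, at 2.37 and 3.34 units. On that scale Hes1 was highest on Flattop-positive replicate 3 (2.58 against 2.50). Neurog3, Aldh1a3, Sox4, Notch1, Notch2 and Onecut1 were each highest on a Flattop-positive array. For 5 members the deposited signals were highest on Flattop-negative replicate 2 and next on Flattop-positive replicate 3, an order shown by 8.77% of all genes.

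Genes of the immediate early and heat shock response had those same arrays on top. Of 11 such genes, a list added after the data had been seen, the median was 9.96 on Flattop-positive replicate 3 and 9.97 on Flattop-negative replicate 2, against 6.21 to 7.42 on the other arrays. The transcription factor gene Atf3 was at 11.51 and 11.74 there and at 5.27 to 7.61 elsewhere, and Jun at 11.33 and 11.14 against 6.83 to 8.41. Xist, the X-inactivation transcript of female cells, was at 7.81 and 8.62 on them and at 3.58 to 4.36 on the others. The part of these differences between pools in the Hes1, Sox9 and Gata6 signals was not tested.

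Holding that split fixed left the members uncalled. When high-Xist and low-Xist arrays were blocked, an alternative added after the data had been seen, the differences were -0.33 for Hes1, -0.51 for Sox9 and -0.65 for Gata6 (limma adjusted p = 0.456, 0.444 and 0.323, over all genes). For Hes1 the difference was -0.35 among the arrays with low Xist and -0.32 between those with high Xist, a similar size on both sides. For Sox9 it was -0.10 and -1.05, and for Gata6 -0.30 and -1.11, so most of it came from the high pair, where each fraction has 1 array.

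**Figure D3:**
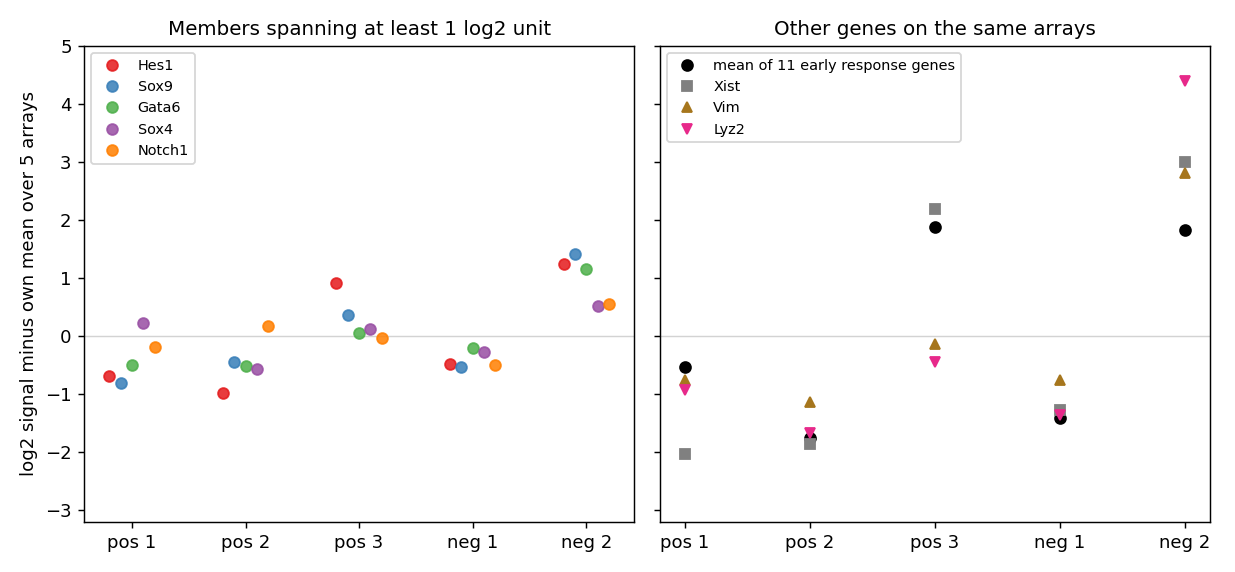
Log2 signal minus the gene's own mean over the 5 arrays (vertical axis) on each array (horizontal axis; points are offset sideways for legibility on the left) for members that span at least 1 unit (left) and for 11 early response genes, Xist, Vim and Lyz2 (right). Hes1, Sox9 and Gata6 are highest on neg 2 and next on pos 3, the arrays where the early response genes and Xist are also highest.

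Markers of the other islet endocrine cells also differed between the Flattop-negative pools. All 6 markers of δ, PP and ε cells were highest on replicate 2, and their summed linear signal was 32509 there, 4003 on replicate 1 and 15659 to 23856 on the Flattop-positive arrays. The δ-cell hormone gene Sst was at 13.19 on replicate 2 and 8.08 on replicate 1, the PP-cell hormone gene Ppy at 13.63 and 8.98, and the ε-cell hormone gene Ghrl at 6.89 and 6.34.

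Many markers of cells outside the islet endocrine lineage also peaked on Flattop-negative replicate 2. Of 12 stellate and mesenchymal markers 10 did so, and their summed linear signal was 738 there against 255 to 301 on the other 4 arrays. The intermediate filament gene Vim was at 8.59 on it and at 4.64 to 5.64 elsewhere, while the fibroblast markers Pdgfra and Lum were below the floor on every array. The matrix gene Dcn was at 4.97 on it and 3.84 to 4.21 elsewhere, and the pericyte gene Rgs5 at 5.05 against 3.77 to 4.31. Both passed the floor on that 1 array only, where it lay at 4.86. The collagen gene Col1a2 was at 5.74 against 4.71 to 5.17. Of 12 immune markers 10 peaked there, with a summed signal of 1151 against 276 to 421 and a median log2 signal of 5.39 against 4.11 to 4.48. The macrophage gene Lyz2, which gave most of that sum, was at 9.41 against 3.36 to 4.58, although Ptprc and Adgre1 stayed below the floor. Itgam was at 4.83 against 3.56 to 3.88, below the floor on all 5 arrays. The complement gene C1qc was at 5.49 there and 4.20 to 4.93 elsewhere, whereas C1qa was at 6.02 to 7.15 in Flattop-positive and 4.95 and 5.84 in Flattop-negative arrays. Endothelial markers summed to 242 against 155 to 175 (8 of 10 peaked there), glial markers to 154 against 110 to 142 (5 of 6), and acinar markers to 598 against 364 to 622 (9 of 13). Of all genes 31.3% peaked there. On no array did 6 of the 10 endothelial, 4 of the 6 glial and 4 of the 13 acinar markers pass the floor. The Olfr genes themselves summed to 14968 and 14445 on the Flattop-negative arrays, against 11229 to 12250 on the Flattop-positive ones. The part of such cells in the member signals was not tested.

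Other genes of the Notch pathway, grouped by role, held few differences. Of 5 ligands, 2 were higher and 3 lower with 0 past an unadjusted p of 0.05, and Dll4 had -0.46, Dll3 -0.36 (below the floor on all arrays) and Jag2 0.32. Leaving out either Flattop-negative array in turn (replicate 1, then 2) gave -1.02 and 0.095 for Dll4 and -0.062 and 0.71 for Jag2. Among 4 receptors, Notch3 had -0.20 and Notch4 -0.33, which was 0.081 without Flattop-negative replicate 2. Of 10 genes of the nuclear complex, 0 had an unadjusted p under 0.05. Its DNA-binding core Rbpj was level at 6.69 to 6.76 in Flattop-positive and 6.98 and 6.56 in Flattop-negative arrays, and the coactivator Maml2 had -0.43, the demethylase Kdm5a -0.41 and the corepressor Tle4 -0.40, which was 0.14 without Flattop-negative replicate 1.

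Genes that modify or cut the receptor held the highest differences of the pathway, though none passed the adjusted threshold. Of 19 measured, 4 were higher in the Flattop-positive arrays at an unadjusted limma p under 0.05 and at least 1.5-fold, where 8.08% of all genes were, and 0 were lower (3.74%). Of these, 3 encode subunits of γ-secretase, the protease that releases the Notch domain. Ncstn (nicastrin) stood at 8.14, 8.36 and 7.69 against 6.78 and 7.27, a difference of 1.04 ± 0.29 (SE; limma adjusted p = 0.266). Aph1a had 0.89 ± 0.26 (adjusted p = 0.278), and 0.57 without Flattop-negative replicate 1. Psenen, named after its value was seen, was at 10.18, 9.86 and 10.49 against 6.57 and 9.03, and its difference of 2.38 became 1.15 when Flattop-negative replicate 1 was dropped and 3.61 when replicate 2 was. The other one was Rfng, a glycosyltransferase of the Fringe family, at 0.63 ± 0.18 (adjusted p = 0.276). In these 4 genes the groups did not overlap, and the sign held under every scaling tried, but the size did not. With repeated quantile normalisation Rfng had 0.42 and Aph1a 0.56, and with cyclic loess 0.43 and 0.55. Those values are under the 0.585 units of a 1.5-fold step. Ncstn had 0.59 and Psenen 1.91 with cyclic loess. Centring on the medians or on the floor raised all 4. γ-secretase cuts many other proteins besides Notch.

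All 7 Notch targets had lower means for Flattop-positive cells (median -0.32). For Heyl (-0.42), Hes5 (-0.32) and Hey1 (-0.28) the groups did not overlap, 3 of 7 against a background of 21% lower, and no target had an unadjusted p under 0.05. With arrays centred on the floor the median of the targets was 0.10, below the 0.31 of all genes, and Heyl had -0.01, Hes5 0.10 and Hey1 0.13.

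**Figure D4:**
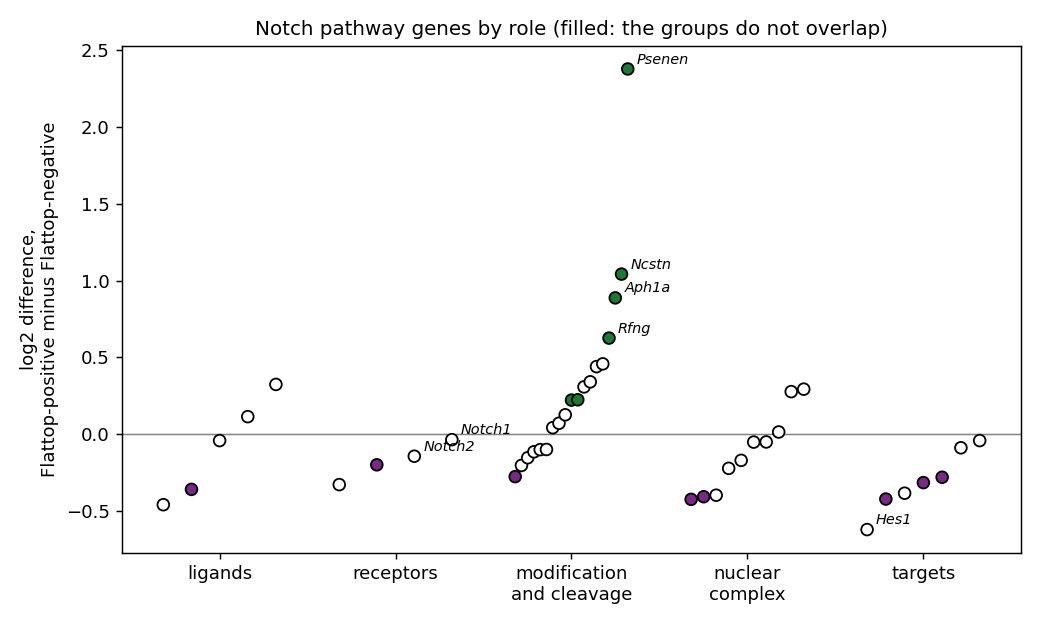
Log2 difference, Flattop-positive minus Flattop-negative (vertical axis), of single Notch pathway genes grouped by role (horizontal axis). Filled points are genes whose groups do not overlap (green, higher; purple, lower): Psenen (2.38), Ncstn (1.04), Aph1a (0.89) and Rfng (0.63) lie highest, and the 7 targets all lie below 0.

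Of the 28 transcription factors measured that act before or after Neurog3, 7 did not overlap between the fractions, all of them higher in Flattop-positive arrays, against 13.7% of all genes higher without overlap. Pdx1 and Nkx6-1 among them are also on the list of β-cell markers. The Nkx2-2 groups were barely apart (8.451 against 8.448). Runx1t1, named after its value was seen, went from 0.24 to -0.07 with repeated quantile normalisation and -0.10 with cyclic loess. Pax6 had 0.12 and 0.06 there, and the others kept their sign. Of 14 multipotent progenitor factors, 6 were higher and 8 lower (median -0.10). Only Pdx1 (1.35 ± 0.21 SE; limma adjusted p = 0.198) and Glis3 (0.72 ± 0.25; adjusted p = 0.316), both also used by adult β-cells, had an unadjusted p under 0.05, and Mnx1 had 0.75. Of 14 factors of the endocrine cascade, 8 were higher and 6 lower (median 0.17), with Nkx6-1 at 1.26 ± 0.28 (adjusted p = 0.220), Nkx2-2 at 1.15 and Pax6 at 0.53. That median turned to -0.17 with repeated quantile normalisation and to -0.14 with cyclic loess. For Nkx2-2, dropping Flattop-negative replicate 1 left 0.14, whereas dropping replicate 2 raised it to 2.16. Neurod1 and Insm1, direct targets of Neurog3, had 0.27 and 0.11, and became -0.54 without Flattop-negative replicate 2 and -0.062 without replicate 1, respectively. These 2 were named after their values were seen.

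Of 33 relatives of the members in the Sox, aldehyde dehydrogenase and retinoic acid lists, 11 passed the floor on no array, against 30.9% of all genes. Of 9 other Sox genes, 2 were higher and 7 lower, and Sox8 was the only one past an unadjusted p of 0.05 (-0.66 ± 0.19 SE; limma adjusted p = 0.278), at 4.21 to 4.47 against 4.91 and 5.04, above the floor on 3 arrays. Sox5 had -0.42 and Sox10 -0.34. Of 9 aldehyde dehydrogenase genes related to Aldh1a3, 5 never passed the floor, Aldh1a1, Aldh1a2 and Aldh1a7 among them. Aldh2, the mitochondrial acetaldehyde enzyme, was 0.81 ± 0.22 higher in the Flattop-positive arrays (adjusted p = 0.264) but passed the floor on 2 arrays, and Aldh1a2 had -0.31 and Aldh1b1 -0.39. Of 15 retinoic acid carriers, receptors and breakdown genes, 3 were higher and 12 lower (median -0.14), and 0 had an unadjusted p under 0.05. Stra6 had -0.43, Rarb -0.50 (0.019 without Flattop-negative replicate 2) and Rarg -0.26. Dhrs3, a retinaldehyde reductase named after its values were seen, was high on the same arrays as Hes1, at 6.45 on Flattop-positive replicate 3 and 5.90 on Flattop-negative replicate 2 against 4.11 to 4.45.

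The 12 other genes named in β-cell dedifferentiation had a median of -0.42, with 1 higher and 11 lower. Pou5f1 was the only one with an unadjusted p under 0.05 (-0.54 ± 0.21 SE; limma adjusted p = 0.347), and Cck had -0.69 and Slc16a1 -0.50. All 3 were below the floor on all 5 arrays, so these are differences at background. Of the 12 genes, 5 passed the floor on all 5 arrays, among them Myc, named after its values were seen. It had the largest difference of the list, -0.73 ± 1.07 (SE; limma adjusted p = 0.756). Myc was at 9.09 on Flattop-positive replicate 3 and 8.85 on Flattop-negative replicate 2, against 5.69 to 7.11 elsewhere. The pluripotency factor gene Nanog passed the floor on 2 arrays, and its -0.37 had an unadjusted limma p of 0.268. With arrays centred on the floor the median of the 12 genes was -0.01, against 0.31 for all genes. Over the 115 pathway genes that are not members, 8 were higher and 1 lower at an unadjusted limma p under 0.05 and 1.5-fold, against 8.08% and 3.74% of all genes.

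The nearest profiles among all genes were sought for the 5 members that passed the floor and spanned at least 1 unit, a span that 41.3% of all genes had, by the root mean square distance between log2 values over the 5 arrays, each gene minus its own mean. For Gata6 they were Msn and Pdpn (distances 0.04 and 0.07), for Sox9 Tchh and Plat (0.11 and 0.12), and for Hes1 Trim6 and Gys2 (0.09 and 0.15). For Notch1 they were Klf14 and Pdlim2 (0.03 and 0.04), and for Sox4 Mir15a and Aph1c (0.09 and 0.11). The nearest member to Gata6 was Sox9 at 0.27, and to Hes1 it was Sox9 at 0.36. These genes were picked as the nearest of all genes over only 5 arrays, and the distances describe these arrays only.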

How the data were processed

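RMA had been run by the authors in Affymetrix Expression Console (version 1.3.0.187, from the submitters' processing notes), and what they deposited is a log2 signal for each probe set. The build is not stated in the sources used here. Of 35556 probe sets, 21789 were annotated to 1 gene symbol and used, 1621 to several and 12146 to no listed gene; the GRCm38.p6 gene table lists the gene ID of 21698 of those used. Where a gene had several probe sets, the one of highest mean signal stood for it. Array medians were 4.74 to 4.98, and the number of arrays limits the precision.

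A linear model with group as its only term was fitted in limma 3.58.1 under R 4.3.3, with moderated variances, two-sided tests and Benjamini-Hochberg correction across the 19938 genes. It is the source of each adjusted p. Tested on simulated data made for Flattop-positive against Flattop-negative arrays with 19938 genes, it recovered 3.4% of genes changed by 1 unit, 74.3% at 2 units and 93% at 3 units. The simulated noise was independent between genes and equal in both groups. In the real arrays the median SD was 0.202 for Flattop-positive and 0.326 for Flattop-negative cells, so these shares may be too high for them. Software for tables and plots was pandas 2.3.3 and matplotlib 3.10.9.

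The members, the lists of pathway and cell type genes, and the tests were chosen with earlier results of these data known. Named genes are the members, the 3 genes of smallest p in each list (β, α, acinar, endothelial and glial markers are given by list only), the 2 nearest profiles of members spanning at least 1 unit, and genes named after their values were seen: those said to be so, Cfap126, Xist, Atf3, Jun, Vim, Lyz2, Pdgfra, Lum, Ptprc, Adgre1, Cftr, Krt19, Muc1, Ambp, Krt18, Rbpj, Nanog, Aldh1a1 and Aldh1a7. Markers of β, α, δ/PP/ε, duct, acinar, endothelial, immune, stellate and glial cells were listed; α-cell markers had a median difference of -0.32 (7 genes) and δ, PP and ε markers -0.22 (6 genes). Alternatives covered a block on the replicate number, dropping single arrays or dim genes, the normalisation, the choice of probe set, the variance model, weights on arrays, and the floor.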

Additional observations from a re-analysis of the deposited data

How the results depend on the processing

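No member passed the adjusted threshold under any alternative run, and 77 of 99 values for single members kept their sign over the 11 alternatives that could move a value and repeated no other. The rules for several probe sets, the variance model and the filter on dim genes cannot move a member's value, and the replicate block repeats the values without Flattop-positive replicate 3. Of those that turned, the values for Flattop-negative replicate 2 left out were 0.23 for Sox9, 0.20 for Sox4, 0.24 for Hes1, 0.49 for Notch1, 0.22 for Notch2 and 0.021 for Onecut1. The values for a Flattop-positive array left out were 0.047 for Sox4 (replicate 2), 0.050 for Notch1 (replicate 1) and 0.034 for Onecut1 (replicate 3). Centring on the Olfr floor gave 0.13 for Neurog3, 0.17 for Aldh1a3, 0.21 for Sox4, 0.37 for Notch1, 0.27 for Notch2 and 0.34 for Onecut1. Notch1 had 0.019 with arrays centred on their medians and 0.035 when arrays were blocked by high Xist. Repeated quantile normalisation gave 0.13 for Notch2 and 0.083 for Onecut1, and cyclic loess gave 0.007 for Aldh1a3, 0.12 for Notch2 and 0.12 for Onecut1. The lowest values on leaving out 1 array were -1.71 for Sox9, -0.60 for Sox4, -1.48 for Hes1, -0.56 for Notch1, -0.51 for Notch2 and -0.17 for Onecut1. Gata6 was below 0 in every alternative (-1.48 to -0.12; limma adjusted p 0.104 to 0.853). The causes were not tested.

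Leaving out 1 array at a time moved the median of the members between -0.56 and 0.20 and the members passing between 0 and 0. The genes passing the adjusted threshold ran from 0 to 434, the latter when Flattop-negative replicate 2 was dropped and the lone array was assumed to vary like the other group. The pathway genes at an unadjusted p under 0.05 and 1.5-fold ran from 6 to 22, with 9 on all arrays, and numbered 20 on centring at the Olfr floor. At the 99th percentile of Olfr genes 2 members stayed above the floor on all arrays, in place of 7. Replicate numbers do not pair the pools by any label, and the deviations of same-numbered pools correlated at 0.18 for replicate 1 and -0.14 for replicate 2. Deviations of 2 Flattop-negative arrays from their own mean mirror each other. Flattop-positive replicate 2 therefore had 0.14 with Flattop-negative replicate 1, and such values cannot decide whether the pools were paired. With the replicate block 0 genes and 0 members passed, the median of the members was -0.30, 8 pathway genes were counted and Onecut1 had 0.034.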
